A study of Mus musculus with 10 samples.

Results

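Peaks of H3K27me3, the trimethyl mark on lysine 27 of histone H3, were described for mouse chromosome 11 in 5 lymphoma lines. A member is any distinct peak on chromosome 11 in the deposited peak list of a line. The parental list held 775 such peaks of 10778, R100 held 2667 of 25180, R500 held 1847 of 21888, R1000 held 788 of 9595 and R4000 held 683 of 6820. The chromosome was chosen by its share of the peaks in R100 and R4000, so these shares are a description and support nothing. Merged over the 5 lists, the peaks formed 4153 regions of 47264 in the genome.

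All 5 lines carry the Eμ-Myc transgene, in which the immunoglobulin heavy chain enhancer drives Myc in B cells, and all lack Cdkn2a on a C57BL/6J background. The resistant lines were derived from the parental line by stepwise selection in mafosfamide, an alkylating agent related to the active form of cyclophosphamide. Sub-clones were taken at 100 nM on day 10 (R100), 500 nM on day 18 (R500), 1000 nM on day 23 (R1000) and 4000 nM on day 37 (R4000; the sources differ on the length of the escalation), and all lines were grown without the drug for ChIP-seq. Each resistant line is therefore 1 isolate, and dose cannot be told apart from time in culture or from the clone. The peak lists give 1 set of positions per line and neither a height nor a read count. Sequencing depth behind a list is unknown, and no difference between lines could be tested against a spread between replicates. Intervals are 95% Wilson intervals and cover counting error only. Positions are in mm9.

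H3K27me3 is written by Polycomb repressive complex 2, whose catalytic subunit is Ezh2 or Ezh1, and is bound by the Cbx proteins of Polycomb repressive complex 1. In differentiated cells the mark typically lies over CpG-rich promoters of developmental genes that are silent in that cell type. In B cells, Ezh2 is needed for early development and for the germinal centre reaction. Chromosome 11 of the mouse holds the Hoxb cluster of homeobox genes, the type I keratins, a chemokine cluster, the Th2 cytokine cluster, and several Polycomb genes of its own (among them Suz12, Ezh1, Cbx2, Cbx8 and Pcgf2). It is 121.8 Mb long and carries 1653 of 22380 annotated protein-coding genes (7.39%), or 13.6 per Mb against 8.47 over chromosomes 1 to 19 and X.

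The sequences under 7 peaks or merged regions are given to show what the list holds, with each CG dinucleotide in capitals and all read on the plus strand. The widest region present in all 5 lists (chr11:118910401-118914700) lies upstream of Cbx8, outside any protein-coding gene, and its central 300 bp (chr11:118912401-118912700) hold 1 CpG. R100 and R500 peaks covered all of these 300 bp, while parental and R1000 peaks covered 150 bp each. No R4000 peak reached them (0 bp), so the label of this sequence refers to the merged region and not to the bases shown. The widest R100 peak that overlapped no parental peak is in an exon of Otx1 (chr11:21900051-21900350), with 10 CpG. The widest R4000 peak of that kind is in an intron of Cacna1g (chr11:94334126-94334425), with 14 CpG. The sequence named Hoxb9 is from the widest R100 peak in the 1-Mb bin where R100 gained most (chr11:96131251-96131550), which is intergenic, upstream of Hoxb9, with 16 CpG. The sequence named Nxph3 is from the widest R4000 peak outside untranslated regions in the 1-Mb bin with the largest rise of the R4000 share (chr11:95376151-95376450), just upstream of Nxph3, with 13 CpG. The last pair were in a single list each, an R100 peak in an intron of Myo1d more than 50 kb from any transcription start (chr11:80416251-80416550, 8 CpG) and an R4000 peak in a coding exon of Lsm11 (chr11:45758001-45758250, 39 CpG).
Cbx8 upstream, all 5 lines: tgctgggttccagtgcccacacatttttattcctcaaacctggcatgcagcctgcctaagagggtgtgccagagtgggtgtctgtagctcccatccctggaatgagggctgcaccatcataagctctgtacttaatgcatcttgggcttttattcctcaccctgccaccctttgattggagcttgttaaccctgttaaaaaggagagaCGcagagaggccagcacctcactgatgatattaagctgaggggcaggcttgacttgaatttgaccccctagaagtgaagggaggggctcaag
Otx1 exon, R100 gain: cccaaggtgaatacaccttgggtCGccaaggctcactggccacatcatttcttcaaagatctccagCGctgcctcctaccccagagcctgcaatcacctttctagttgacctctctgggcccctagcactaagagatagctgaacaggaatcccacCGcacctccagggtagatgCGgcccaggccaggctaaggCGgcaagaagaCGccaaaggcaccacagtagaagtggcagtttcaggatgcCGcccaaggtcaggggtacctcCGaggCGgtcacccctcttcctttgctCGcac
Cacna1g intron, R4000 gain: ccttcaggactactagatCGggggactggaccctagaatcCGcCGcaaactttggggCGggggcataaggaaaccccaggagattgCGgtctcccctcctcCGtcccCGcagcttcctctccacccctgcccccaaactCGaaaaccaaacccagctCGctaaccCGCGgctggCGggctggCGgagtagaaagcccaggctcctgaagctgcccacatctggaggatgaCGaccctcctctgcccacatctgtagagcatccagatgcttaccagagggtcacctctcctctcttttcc
Hoxb9 upstream, leading bin of R100: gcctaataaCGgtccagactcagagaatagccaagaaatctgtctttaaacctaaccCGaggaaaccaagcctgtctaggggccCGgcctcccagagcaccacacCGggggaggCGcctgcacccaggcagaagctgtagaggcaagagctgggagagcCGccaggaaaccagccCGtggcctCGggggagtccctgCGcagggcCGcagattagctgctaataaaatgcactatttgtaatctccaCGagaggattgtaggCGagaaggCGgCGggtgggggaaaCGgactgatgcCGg
Nxph3 upstream, leading bin of R4000: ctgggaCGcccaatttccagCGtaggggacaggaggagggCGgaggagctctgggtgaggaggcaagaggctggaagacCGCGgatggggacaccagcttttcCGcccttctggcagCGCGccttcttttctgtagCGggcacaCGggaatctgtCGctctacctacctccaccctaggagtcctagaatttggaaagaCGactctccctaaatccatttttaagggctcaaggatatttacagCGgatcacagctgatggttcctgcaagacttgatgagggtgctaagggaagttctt
Myo1d intron, R100 alone: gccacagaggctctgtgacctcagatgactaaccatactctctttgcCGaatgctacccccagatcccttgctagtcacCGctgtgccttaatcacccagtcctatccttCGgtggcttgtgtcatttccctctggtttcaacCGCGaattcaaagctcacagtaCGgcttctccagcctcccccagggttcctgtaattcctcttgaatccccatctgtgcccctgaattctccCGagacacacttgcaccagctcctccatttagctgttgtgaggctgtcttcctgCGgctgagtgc
Lsm11 exon, R4000 alone: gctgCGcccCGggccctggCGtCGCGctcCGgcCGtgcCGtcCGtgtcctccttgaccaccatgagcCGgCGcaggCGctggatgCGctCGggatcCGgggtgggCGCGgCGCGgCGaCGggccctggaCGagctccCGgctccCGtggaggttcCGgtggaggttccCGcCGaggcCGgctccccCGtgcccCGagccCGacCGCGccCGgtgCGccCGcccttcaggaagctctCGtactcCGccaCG

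Among all 300-bp tiles of chromosome 11, 3.10% hold 10 CpG or more, 1.40% hold 14 or more, 1.08% hold 16 or more and 0.0952% hold 39 or more. The Cbx8 upstream sequence is unlike the others, since 84.5% of tiles hold at least its 1 CpG. Over all chromosome 11 peaks, 19.7% of parental peaks (95% CI 17.1 to 22.7%) had 15 CpG or more in the 300 bp around their centre, against 1.22% of tiles. For R100 this share was 23.6%, for R500 24.0%, for R1000 29.8% and for R4000 37.8% (95% CI 34.2 to 41.5%).

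Chromosome 11 held 7.19% of parental peaks (95% CI 6.72 to 7.69%), 10.6% in R100 (10.2 to 10.98%), 8.44% in R500 (8.08 to 8.81%), 8.21% in R1000 (7.68 to 8.78%) and 10.01% in R4000 (9.32 to 10.7%). Its rank among 20 chromosomes was 4 in parental cells, 1 in R100 cells, 4 in R500, 4 in R1000 and 2 in R4000 cells. The share was thus higher than parental in all 4 resistant lines, and furthest above it in R100 and R4000. The numbers behind these shares moved in different directions. R100 had 3.44 times the parental number of chromosome 11 peaks, while the other chromosomes together had 2.25 times. Singly they ran from 1.74 times (chromosome 16) to 3.10 times (chromosome 5), with chromosome 17 at 3.03. R4000 had 0.881 times the parental number, while the other chromosomes had 0.614 times. The rise in R100 was therefore a gain of peaks, and the rise in R4000 was a smaller loss than elsewhere. In R500 the ratio was 2.38 against 2.003 elsewhere, and in R1000 it was 1.02 against 0.880. By this ratio chromosome 11 ranked 1 of 20 in R100 and in R4000, but 5 in R500 and 8 in R1000.

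**Figure D1:**
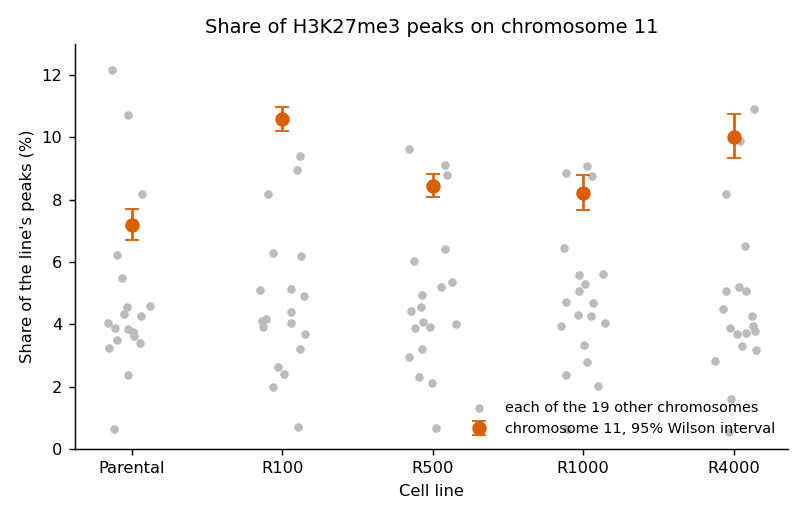
Share of each line's H3K27me3 peaks that lie on chromosome 11 (orange, with 95% Wilson interval) and on each of the 19 other chromosomes (grey), in percent of the line's list. Chromosome 11 was at 7.19% in the parental line, against 10.6% in R100 and 10.01% in R4000.

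Covered length moved the same way as the number of peaks. Chromosome 11 peaks covered 138 kb in parental cells, 564.9 kb in R100 cells, 431 kb in R500 cells, 151 kb in R1000 cells and 121 kb in R4000 cells. The median width was 100 bp in each list, and the widest peak was 1900, 3950, 4300, 2300 and 2100 bp wide in the same order. Peaks of at least 500 bp numbered 54, 249, 209, 71 and 45 in the order parental, R100, R500, R1000 and R4000.

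By number, the R100 gain was spread over all kinds of peak. Peaks within 2 kb of a transcription start site (TSS) went from 368 to 1202, which was 44.1% of the gain of 1892 peaks. Peaks 5 to 50 kb from a TSS were 4.004 times as many as in the parental line, those with at least 15 CpG in 300 bp were 4.11 times as many and those of at least 500 bp were 4.61 times as many. The share that chromosome 11 held of each class in the genome gives another order, since the other chromosomes gained too. Of all peaks within 2 kb of a TSS, chromosome 11 held 9.36% in the parental line (95% CI 8.49 to 10.3%) and 10.4% in R100 (9.84 to 10.95%). For peaks 2 to 5 kb from a TSS its share was 7.59% and 12.9%, and for peaks 5 to 50 kb away it was 5.67% (4.99 to 6.43%) and 10.8% (10.1 to 11.5%). These classes make up the share by which the chromosome was chosen and are given as a description. Of the 3 distance classes given, the share differed least near the TSS. Among peaks with fewer than 15 CpG in 300 bp, the chromosome 11 share was 6.67% in the parental line and 10.9% in R100, while among peaks with 15 or more it was 10.6% and 9.72%. Among peaks of a single 50-bp window it was 5.82% and 10.2%, and among those of at least 500 bp it was 9.84% and 11.1%.

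In R4000 the chromosome 11 share was above the parental one in each of these classes. It was 10.7% within 2 kb of a TSS, 10.9% at 2 to 5 kb and 8.68% at 5 to 50 kb (95% CI 7.42 to 10.1%). It was 9.43% of CpG-poor peaks and 11.1% of CpG-dense peaks, 8.39% of 50-bp peaks and 12.7% of peaks of at least 500 bp. R1000 stayed nearest to the parental line in distal peaks, at 6.66% for 5 to 50 kb, and R500 was at 7.40%. Had each distance class kept its parental chromosome 11 share, the mix of classes in R100 would have given 7.53% of the list in place of 10.6%, and that in R4000 would have given 8.02% in place of 10.01%. The change in the mix thus gave 0.337 points in R100 and 0.829 points in R4000, and the rest, 3.06 and 1.99 points, was within classes.

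**Figure D2:**
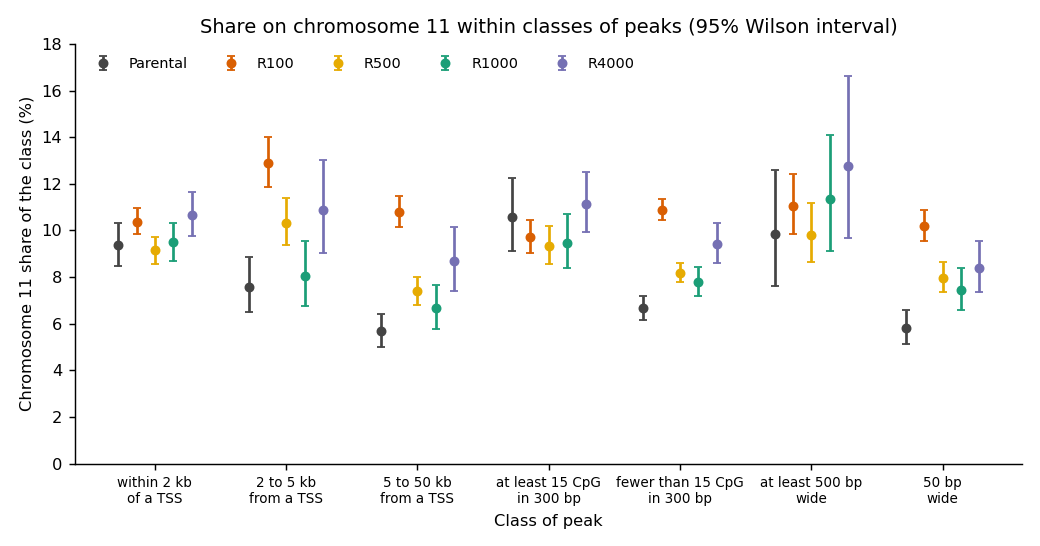
Chromosome 11 share of each class of peak, in percent of all peaks of that class in the line, with 95% Wilson intervals. R100 (orange) stands above the parental line (black) at 5 to 50 kb from a TSS (10.8% against 5.67%), in CpG-poor peaks and in 50-bp peaks, and differs less from it within 2 kb of a TSS (10.4% against 9.36%).

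Along the chromosome the rise in R100 was spread over most of its length. In fixed 1-Mb bins, R100 had more peaks than the parental line in 87 of 122 bins, fewer in 5 and the same number in 30. Over the 20 chromosomes, 53% of 2649 bins had more. These counts and those below are a description, since the chromosome was chosen by the shares that its bins make up. The net rise was 1892 peaks, and 18 bins held 50% of it. The 8 bins with the largest rise held 545 peaks of it (28.8%). By share of the list, the share was larger in R4000 than in the parental line in 63 bins and smaller in 24, against 25.4% of bins with a larger share over the genome (37% for R100). Here 9 bins held 50% of the net rise of 2.82 points. The R100 share was larger in 78 of 122 bins. By number, R4000 had 92 peaks fewer than the parental line, with more in 31 bins, fewer in 43 and the same number in 48, and 12% of bins over the genome had more R4000 than parental peaks.

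The leading R100 bin was the one from 96 to 97 Mb, which holds the Hoxb cluster. It had 63 parental, 192 R100, 154 R500, 65 R1000 and 51 R4000 peaks, and its rise of 129 peaks was the largest of all 2649 bins. R100 and R500 were far above the other lines there, and R4000 was below the parental line in number. The bin from 69 to 70 Mb, with Cldn7, Fgf11 and Ybx2, followed with 26, 94, 73, 26 and 25 peaks in the same order of lines. The bins from 97 to 98 Mb (28, 94, 64, 27 and 30 peaks, with Pcgf2 and Stac2) and from 102 to 103 Mb (25, 89, 72, 25 and 28 peaks, with C1ql1 and Fam171a2) came next. The remaining named R100 bins began at 95, 101, 100 and 98 Mb, with rises of 62, 54, 53 and 49 peaks. Of the 50 bins of the genome with the largest rise in R100, 13 lay on chromosome 11, which has 122 of the 2649 bins. The chromosome was chosen by the shares that its bins make up, so this count is a description and adds no support.

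The R4000 rise in share is given beside this, taken against the same parental list. Its leading bin, the 1 from 95 to 96 Mb with Igf2bp1, Dlx4, Nxph3 and Ngfr, held 39 peaks in both the parental line and R4000, or 0.362% of the parental list and 0.572% of the R4000 list. The bins from 97, 102, 70, 96, 98, 101 and 120 Mb followed, with rises between 0.180 and 0.132 points. The bin from 70 to 71 Mb, with Pld2 and Alox12, had 6, 43, 29, 14 and 15 peaks, and that from 120 to 121 Mb, with Bahcc1 and Notum, had 30, 74, 53, 29 and 28. The largest decreases of the R4000 share were in the bin from 45 to 46 Mb (25 parental, 34 R100, 22 R500, 6 R1000 and 6 R4000 peaks) and the bin from 47 to 48 Mb (15, 9, 6, 1 and 0 peaks), named here after their values were seen. The protein-coding TSS in the latter is that of Sgcd, a sarcoglycan of muscle.

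**Figure D3:**
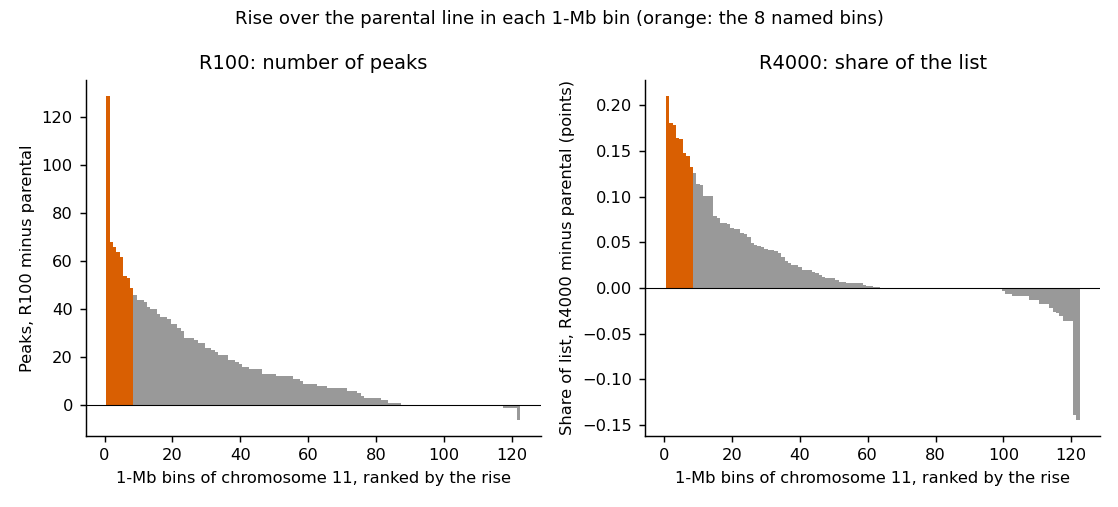
The 122 bins of 1 Mb on chromosome 11, ranked by their rise over the parental line, in number of peaks for R100 (left) and in points of the list's share for R4000 (right). The 8 named bins are orange. The Hoxb bin stands apart in R100 with 129 peaks more, and 2 bins stand apart at the low end in R4000.

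Stretches of the chromosome, set after the bins were seen, differed in how much of each rise they held. The 10 bins from 94 to 104 Mb, with 20.9% of the chromosome's protein-coding genes in 8.2% of its bins, held 29.2% of the R100 rise in number and 35.8% of the R4000 rise in share. The 68 bins from 0 to 68 Mb, with 34.5% of the genes, held 27.1% of the R100 rise and 8.19% of the R4000 rise. The ratio of R100 to parental peaks was 3.70 in the 0 to 68 Mb stretch and 3.33 in the 94 to 104 Mb stretch, and lay between 3.0 and 4.25 over all 6 stretches. The ratio of R4000 to parental peaks was 0.716 and 0.924 in the same 2 stretches and 1.03 from 115 Mb to the end. The low R4000 ratio of the 0 to 68 Mb stretch rested on the block from 40 to 50 Mb, where the parental line had 63 peaks and R4000 had 19 (0.302). Without that block, left out after the data were seen, the ratio of the stretch was 0.921 for R4000 and 4.39 for R100.

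In blocks of 10 Mb the R100 ratio was high throughout. The blocks make up the shares by which the chromosome was chosen, so their ratios are a description. In the 11 chromosome 11 blocks with at least 20 parental peaks, the ratio of R100 to parental peaks ran from 2.30 to 5.19 with a median of 3.70, and in all 11 blocks it was above the 2.25 of the other chromosomes. Of 159 blocks on other chromosomes, 70 were above that value, with a median of 2.11 over these blocks. The ratio of R4000 to parental peaks had a median of 0.922 on chromosome 11 and was above the 0.614 of the other chromosomes in 10 of 11 blocks, the block from 40 to 50 Mb being the exception.

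Bins with more genes gained more peaks, on chromosome 11 as elsewhere. Over the 119 bins with known sequence, the R100 rise had a Spearman rho of 0.80 with the number of protein-coding TSS and of 0.83 with CpG per kb, given as a description, since the bins share a library and differ in base composition. Set beside bins of like gene number elsewhere, the chromosome 11 ratio of R100 to parental peaks was higher in every class. That of R4000 was higher in every class but bins with 1 to 5 protein-coding TSS. The bins make up the shares by which the chromosome was chosen, so their ratios are a description. In bins with 16 to 30 protein-coding TSS the ratio of R100 to parental peaks was 3.88 on chromosome 11 (35 bins) and 2.54 elsewhere (271 bins), and with over 30 it was 3.66 (11 bins) and 2.84 (107 bins). The ratio of R4000 to parental peaks in these classes was 0.910 against 0.700, and 1.05 against 0.781. In bins with 1 to 5 such TSS the difference was smaller for R100 (2.26 against 1.72) and went the other way for R4000 (0.447 against 0.475). With 6 to 15 the ratios were 2.81 against 2.08 for R100 and 0.794 against 0.558 for R4000. With no such TSS they were 4.67 against 1.73 and 0.667 against 0.4, on 3 parental peaks of chromosome 11 and 15 elsewhere.

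Genes were counted as covered where peaks lay over at least 150 bp within 2 kb upstream or downstream of the TSS. Of the 2953 annotated genes of chromosome 11, 156 were covered in parental cells, 506 in R100 cells, 356 in R500, 196 in R1000 and 176 in R4000 cells. R100 gained 354 genes (11.99%, beside 8.76% of genes over all chromosomes) and lost 4. R500 gained 208 (7.04%, beside 5.99%), R1000 gained 60 (2.03%, beside 1.91%) and R4000 gained 66 (2.24%, beside 1.55%). R4000 lost 46 of the 156 parental genes, R1000 lost 20 and R500 lost 8. R4000 thus kept 70.5% of them, against 66.1% on other chromosomes. Of the genes covered in R4000, 88.6% were also covered in R100, and these were 30.8% of the genes covered in R100. On other chromosomes these shares were 93.0% and 31.2%. The window and the minimum moved these counts, as the closing section gives. They come from the peaks by which the chromosome was chosen, so they are a description. The same holds for the profile around the TSS that follows.

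Around the TSS, peaks lay mostly downstream. In R100, 10.9% of the 1653 protein-coding genes of chromosome 11 were in a peak at 300 bp downstream, where the highest share was reached, against 7.59% of genes on other chromosomes. In R500 the highest share was 6.78% at 500 bp, in R1000 2.84% at 500 bp, in R4000 2.30% at 600 bp and in the parental line 1.81% at 600 bp. The maximum in R4000 was thus close to the parental one, and that in R100 stood above all others.

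**Figure D4:**
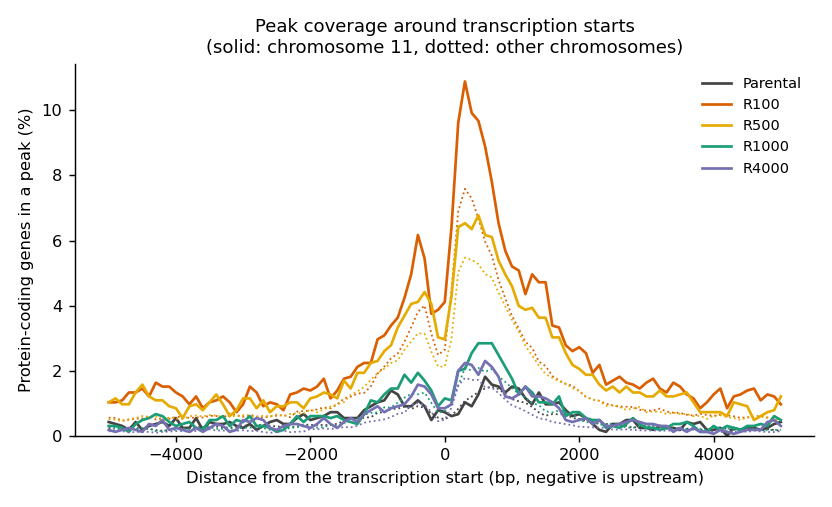
Percent of protein-coding genes in a peak at each distance from the TSS (negative is upstream), for chromosome 11 (solid) and the other chromosomes (dotted). R100 reached 10.9% at 300 bp downstream on chromosome 11 and 7.59% elsewhere, and the profiles of R1000, R4000 and the parental line stayed under 3%.

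The 12 protein-coding genes with the largest gain in R100 were chosen by that gain, so their values are a description. Hs3st3b1, a heparan sulfate sulfotransferase, was covered over 300 bp of the 4001-bp window in parental cells, 2701 in R100 cells, 2359 in R500, 1050 in R1000 and 450 in R4000 cells. Tmem132e had 1100, 3449, 2399, 1000 and 1000 bp in the same order, and Nptx1, a neuronal pentraxin, had 300, 2551, 1950, 850 and 350 bp. In each of these genes R100 was highest, and R4000 was within 150 bp of the parental line. Igfbp4, a binding protein of insulin-like growth factors, had 200, 2450, 2050, 1250 and 800 bp. Otx1, a homeobox factor of the developing forebrain, had 250, 2401, 1450, 1250 and 850 bp. Myh10, a non-muscle myosin heavy chain, had 150, 2300, 1600, 550 and 400 bp. In these genes every resistant line was above the parental line, and the values were lower in each line from R100 to R4000.

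Cacna1g, a T-type calcium channel, had 287 bp in parental cells, 2387 in R100 cells, 1487 in R500, 350 in R1000 and 950 in R4000 cells. C1ql1, a secreted C1q-like protein of synapses, had 800, 2802, 3102, 1749 and 1300 bp. Sdk2, a cell adhesion molecule, had no parental coverage and 1991, 1000, 150 and 200 bp in the resistant lines. Sdk2 was the only gene of the 12 at 0 in the parental line. Fam171a2 had 250, 2205, 1800, 850 and 850 bp, Pcgf2, a subunit of Polycomb repressive complex 1, had 800, 2690, 2100, 1050 and 650 bp, and Lhx1, a LIM homeobox factor, had 1901, 3701, 3701, 2001 and 1223 bp. Pcgf2 and Lhx1 were below the parental line in R4000. The gain was 1800 bp in Lhx1 and also in Ptrf, a caveolar protein, which came next and was left out by the tie rule.

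The gains in R4000 were smaller, at 750 bp or less. Ankrd43 had 0, 1350, 1425, 500 and 750 bp from the parental line to R4000, and its window overlaps that of Gm9945 on the other strand, so the same peaks count for both. Bahcc1, whose protein binds H3K27me3, had 1390 bp in parental cells, 3051 in R100 cells, 2601 in R500, 1851 in R1000 and 2051 in R4000 cells. Pld2, a phospholipase D, had 100, 400, 550, 200 and 650 bp, and was the only gene of the 12 with more coverage in R4000 than in any other line. Nxph3, a neurexophilin, had 100, 1634, 1050, 500 and 650 bp. Plekhh3 and Cntnap1, an adhesion molecule of myelinated axons, share much of their windows and had 150 bp each in the parental line and 700 bp each in R4000. Cacna1g, Otx1, Fam171a2, Igfbp4 and C1ql1 were also among the 12, with gains of 663, 600, 600, 600 and 500 bp. Fzd2, a Wnt receptor, tied with C1ql1 at a gain of 500 bp and was left out.

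**Figure D5:**
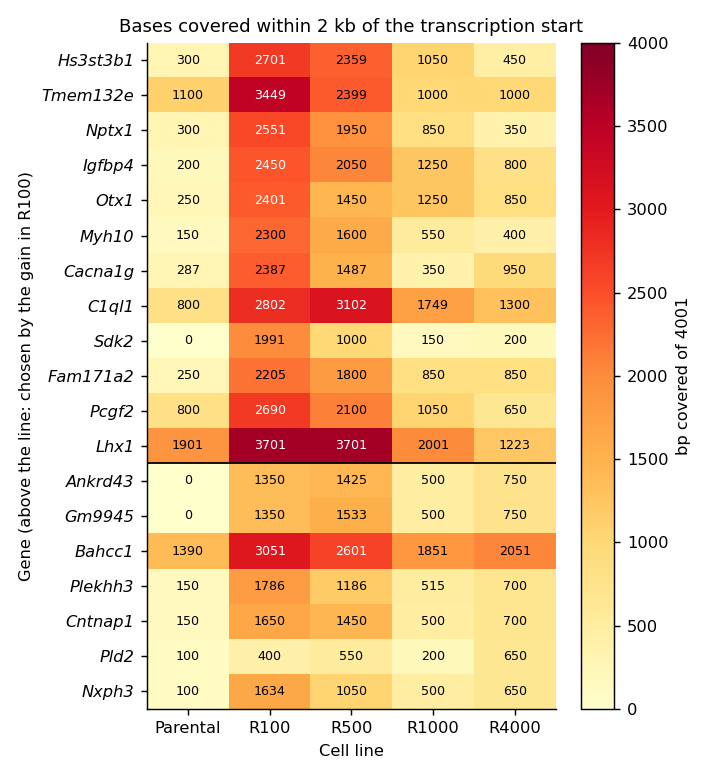
Base pairs covered by peaks in the 4001-bp window around the TSS of the 19 named genes in each line, from 0 (pale) to 4001 (dark red). The upper 12 were chosen by the gain in R100 and the lower 7 are those added by the gain in R4000. R100 and R500 are the darkest columns, and Pld2 alone is highest in R4000.

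Homeobox genes were the developmental group with the most coverage. Of 19 on chromosome 11, 8 were covered in parental cells, 14 in R100 cells, 14 in R500, 9 in R1000 and 7 in R4000 cells. Over all protein-coding genes of the genome, 5.25% were covered in parental cells, 17.4% in R100 cells, 13.3% in R500, 6.92% in R1000 and 5.5% in R4000 cells. The median coverage of the 19 was 0 bp in parental cells, 690 in R100 cells, 650 in R500, 100 in R1000 and 96 in R4000 cells, and the median of all genes was 0 in each line. Within the Hoxb cluster the lines differed by gene. Hoxb9 was covered over 1050 bp in parental cells, 2680 in R100 cells, 2550 in R500, 1180 in R1000 and 1100 in R4000 cells. Hoxb2 had 600, 1496, 846, 796 and 96 bp, and was the homeobox gene that fell below 150 bp in R4000. Hoxb6, Hoxb5, Hoxb4 and Hoxb1 had no parental coverage and 690, 492, 250 and 550 bp in R100, and each had 100 bp or less in R1000 and R4000.

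Other developmental transcription factors were covered in 7 of 21 in parental cells, 10 in R100 cells, 9 in R500, 8 in R1000 and 4 in R4000 cells. Tbx2, a T-box factor, had 750 bp in parental cells, 1853 in R100 cells, 2453 in R500, 850 in R1000 and 550 in R4000 cells. Hand1, a factor of heart and placenta, had 800, 1750, 1700, 400 and 150 bp. Neurod2, a neuronal factor, had 200, 1689, 1039, 300 and 639 bp. Tcf7, a factor of T-cell development, had 450, 1650, 1100, 200 and 100 bp. It was among the 3 of 7 parental genes of this list lost in R4000, where 46 of 156 were lost over the chromosome. No homeobox gene and no gene of this list was gained in R4000. Over all genes of the chromosome 2.24% were gained in R4000, and at that share few of these genes would be gained.

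Of secreted signals and receptors, 4 of 6 parental genes were lost in R4000, where 46 of 156 were lost over all genes of the chromosome. Of 16, 6 were covered in parental cells, 10 in R100 cells, 9 in R500, 5 in R1000 and 2 in R4000 cells. These were 37.5, 62.5, 56.25, 31.25 and 12.5%. Among all protein-coding genes of the chromosome the shares were 6.90, 23.7, 16.2, 9.07 and 7.68%. Wnt3 had 550 bp in parental cells, 1800 in R100 cells, 1000 in R500, 800 in R1000 and 100 in R4000 cells. Ntn1, the guidance cue netrin, had 450, 1576, 1476, 526 and 126 bp, and Fgf11 had 200, 1850, 1300, 300 and 0 bp. Igfbp4 and Ngfr, the low-affinity neurotrophin receptor, were the 2 still covered in R4000. Ngfr had 352, 1752, 1752, 600 and 650 bp. Ion channels and transmitter receptors were covered in 3, 5, 4, 3 and 2 of 20, or 15, 25, 20, 15 and 10%. In R100 this was near the 23.7% of all protein-coding genes of the chromosome. After Cacna1g came Kcnab3 (200, 1350, 1110, 200 and 550 bp) and Kcnh4 (150, 500, 600, 300 and 100 bp).

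The keratin and chemokine clusters had few covered genes. Type I keratins were covered in 2 of 25 in R100 (Krt222 and Krt24, 150 bp each) and in none in the other lines. Of 11 chemokines only Ccl3 was covered, over 250 bp in R500. In the Th2 cytokine cluster 3 of 8 genes were covered in R100 (Il5 with 300 bp, Rad50 with 250 and Il13 with 200) and none in the other lines. Of all protein-coding genes of the chromosome, 23.7% were covered in R100. None of 4 imprinted genes was covered in any line.

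None of 9 B-cell genes reached 150 bp in the parental line. Of these, R100 covered 4, R500 covered 3, R1000 covered 1 and R4000 covered none. Of all protein-coding genes of the chromosome, 6.90, 23.7, 16.2, 9.07 and 7.68% were covered from the parental line to R4000, so that less than 1 of 9 would be covered in the parental line and in R4000 at these shares. Cd79b, a subunit of the B-cell receptor, had 0 bp in parental cells, 1000 in R100 cells, 150 in R500, 150 in R1000 and 0 in R4000 cells. Ikzf1, the lymphoid factor Ikaros, had 0, 250, 300, 0 and 100 bp, and Ebf1, a factor of early B cells, had 0, 269, 100, 0 and 0 bp. Stat5b had 100, 400, 200, 50 and 0 bp. Genes of other blood lineages were covered in 2 of 15 in R100 (Tbx21 with 700 bp and Alox15 with 200), 1 of 15 in R500 and none in the other lines. A peak list holds no expression, so the cell type of the lines could not be checked here.

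Ribosomal protein and translation factor genes, which are active in growing cells, were a further group with peaks. Of 11, 3 were covered in parental cells (27.3%, and 6.90% of all protein-coding genes of the chromosome), 8 in R100 cells (72.7%, and 23.7%), 9 in R500, 7 in R1000 and 4 in R4000 cells. Eif4a1, a translation initiation helicase, had 300 bp in parental cells, 850 in R100 cells, 500 in R500, 400 in R1000 and 650 in R4000 cells. Rpl19 had 0, 350, 250, 200 and 500 bp, Rpl23 had 0, 400, 450, 500 and 150 bp, and Rpl27 had 0, 250, 450, 600 and 250 bp. These 3 ribosomal genes were without parental coverage and covered in all 4 resistant lines. They were the 3 genes of the list gained in R4000, where 2 of the 3 parental genes were lost. The 2 lost were Rpl26, with 300, 450, 400, 0 and 0 bp, and Eif5a, with 150, 400, 300, 250 and 0 bp. Rpl38 had 0, 450, 400, 300 and 100 bp, and Eif1 had 0, 400, 0, 100 and 100 bp. Cell cycle and DNA damage genes were covered in 5 of 14 in R100 (35.7%, and 23.7% of all protein-coding genes of the chromosome). None was covered in the other lines, where few of 14 would be at the shares over the chromosome's protein-coding genes. Those shares were 6.90% in the parental line, 16.2% in R500, 9.07% in R1000 and 7.68% in R4000. Aurkb, a mitotic kinase, and Brip1, a helicase of DNA repair, had 400 bp each in R100, Top2a and Rad50 had 250 bp each, and Trp53, which encodes p53, had 0, 200, 50, 100 and 0 bp.

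Of 12 Polycomb and chromatin genes of the chromosome, 3 were covered in all lines (25%). R100 covered 4 (33.3%), the further one being Aurkb, which is also in the cell cycle list. Of all protein-coding genes of the chromosome, 6.90, 23.7, 16.2, 9.07 and 7.68% were covered from the parental line to R4000. Cbx8 had 1383 bp in parental cells, 1633 in R100 cells, 1533 in R500, 1483 in R1000 and 1483 in R4000 cells. Cbx2 had 1050, 1300, 1425, 1100 and 850 bp, and Pcgf2 is given above. Suz12, a core subunit of Polycomb repressive complex 2, had no coverage except 50 bp in R500.

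Regions found in a single list were most often those of R100. The chromosome was chosen by its share of R100 and R4000 peaks, and the R100 list is the longest. The values of this paragraph are therefore a description and add no support. Of the 4153 merged chromosome 11 regions, 1699 were in R100 alone (40.9%, and 30.8% on other chromosomes), 905 in R500 alone (21.8%, and 24.8%), 248 in the parental line alone (5.97%, and 10.95%), 166 in R4000 alone and 172 in all 5 lists. Peaks in R100 alone were narrow, with a median of 100 bp, 36.7% within 2 kb of a TSS and a median of 5 CpG in 300 bp. They were spread over 93 of the 122 bins, with at most 95 in 1 bin, that of the Hoxb cluster. R100 peaks found in 3 or 4 other lists had a median width of 600 bp, 68.6% within 2 kb of a TSS and a median of 12 CpG. The parental peaks of chromosome 11 were found again more often than those elsewhere, at 59.1% against 40.7% in R100, 57.4% against 42.4% in R500, 35.2% against 26.4% in R1000 and 29.3% against 18.8% in R4000. Of the 54 parental peaks of at least 500 bp, R100 held 53 (98.1%, and 94.7% elsewhere), R500 held 54 (100%, and 97.6%), R1000 held 50 (92.6%, and 92.9%) and R4000 held 49 (90.7%, and 84.4%). For such wide peaks the differences from the rest were smaller than over all widths. There was little room for a difference, with 84.4% or more found again in every comparison and only 54 such peaks on chromosome 11.

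The widest regions in all 5 lists included ones near Cbx8 and at developmental genes. After the region upstream of Cbx8 (2700, 3800, 4300, 2500 and 2050 bp from the parental line to R4000) came, among others, regions in Lhx1 (1800, 3400, 3400, 1300 and 900 bp) and at the start of Tmem132e (1100, 3950, 2550, 1000 and 1000 bp). Among regions in the parental line and not in R4000, the widest was within Sec14l2 (chr11:4017551-4019250), with 800 bp in parental cells, 1700 in R100 cells, 850 in R500 and 350 in R1000. A region upstream of Hoxb8 (chr11:96138451-96140150) had 500, 1050, 1250 and 500 bp in these lines and none in R4000.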

How the data were processed

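H3K27me3 ChIP-seq lists of 5 lines were used, 1 per line. The authors called peaks against input with Poisson statistics and deposited only the positions of peaks (base pairs), and heights, scores and read counts were not part of the lists. The submitters' processing notes name Bowtie and mm9. The methods give a p-value limit for 50-bp windows upstream of promoters. Whether it made the lists, and whether replicates were pooled, is not given in the sources used here, and RRBS (5 samples) was not analysed here. Every R100 and R500 peak was entered 2 times and was counted as 1. All peaks fell within NCBIM37 chromosome lengths. Overlap needed 1 bp, and a bin took the peaks whose midpoint it holds. TSS are gene 5′ ends of GENCODE M1. Python 3.11.15, numpy 2.4.6, pandas 2.3.3 and scipy 1.17.1 were used. Interval functions were tested on simulated data (0 of 4005 values differed).

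Named were the 8 bins with the largest rise in R100 (number) and R4000 (share), the 12 protein-coding genes with the largest gain in bp in each (ties by the larger value in that line, then position), and the 2 to 4 members of each list with most bp in R100 or in the paper's text. Some members are not reported here. A few further members and 2 bins were named after their values were seen. Members and lists were chosen with earlier results of these data known. Alternatives were covered bases, width limits, joined peaks, autosomes, equal lists, other bins, windows and minimums, and protein-coding genes only.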

Additional observations from a re-analysis of the deposited data

Results flagged for a closer look

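R100 and R4000 lay on opposite sides of the parental line in the number of chromosome 11 peaks, at 3.44 times and 0.881 times the parental number. The difference between these lines was not tested, with 1 list each. In 3 of the 8 bins named for R100, R4000 also had fewer peaks than the parental line. In the bin from 96 to 97 Mb the difference from the parental line was 129 peaks in R100 and -12 in R4000, in the bin from 69 to 70 Mb it was 68 and -1, and in the bin from 100 to 101 Mb it was 53 and -12. The depth of the libraries is unknown, and its part in these differences was not tested.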

How the results depend on the processing

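Across the alternatives, 38 of 76 values stayed within their interval, or within 1.5 times for counts. The share in R100, R1000 and R4000 stayed above the parental one under each of them. By covered bases the chromosome 11 share was 8.46% in parental cells, 11.2% in R100 cells, 9.51% in R500, 9.35% in R1000 and 11.3% in R4000 cells, and the ratio to the parental line was 4.09 in R100 and 3.13 in R500. With only peaks of at least 500 bp the shares were 9.84, 11.1, 9.83, 11.4 and 12.7% in the same order, so that the rise in R100 was 1.24 points in place of 3.40 and the difference of R500 from the parental line changed sign, from 1.25 points to -0.010, and the ratios were 4.61 in R100, 3.87 in R500 and 1.31 in R1000. Without 50-bp peaks the share was 8.0% in the parental line and 10.9% in R4000. With peaks within 1000 bp joined it was 6.68% in parental cells, 10.2% in R100 and 7.44% in R1000, and the R1000 ratio was 0.954 in place of 1.02. At 6820 peaks per line, the widest ones, it was 7.99% in the parental line and 9.25% in R500. In bins of 2 Mb, 10 bins held 50% of the R100 rise, which follows from the larger bins. Genes gained in R100 numbered 216 in the 5 kb upstream, 561 at a minimum of 50 bp and 159 at 500 bp. In R500 they numbered 327 at 50 bp and 130 at 500 bp. In R1000 they numbered 38 upstream, 139 at 50 bp and 38 at 500 bp, and in R4000 38, 165 and 23. At 500 bp R4000 also lost 23 genes, for no net gain, and upstream it lost 44, for a net loss. Depth is unknown, and peaks below the detection limit of a shallower library cannot be told apart from peaks that are not there. No value has a replicate, and leaving out a replicate was not possible.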
